A study of Mus musculus with 5464 samples.

Results

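Endothelial cells of the kidneys of non-diabetic mice were compared between 6 weeks, when the animals were young, and 11 weeks of age. The comparison used every cell labelled Lean at these ages, which were 1058 cells on 4 plates at 6 weeks and 1375 cells on 5 plates at 11 weeks, 2433 of the 5464 cells and 9 of the 22 plates of the series. Lean mice (BTBRLean in the study) were the control littermates of leptin-deficient mice that become obese and diabetic (BTBRob/ob, labelled Obese). Per the study's methods the control animals were female and carried either 1 or no copy of the ob allele, and the strain is given as BTBR there but as C57BL/6 in the labels. Kidneys without the papilla were digested with enzymes, and live Pecam1-positive cells were sorted 1 to a well and sequenced as full-length cDNA by SmartSeq2. The labels name no treatment at either age. The counts of all cells of a plate were summed, and levels are counts per 500000 counts of the plate or of the group. Genes of the X and Y chromosomes were left out. Cells are labelled by plate and well and not by animal, and the study's methods describe fewer animals than plates in both groups. Each age was therefore taken as 1 sample, no test was possible between them, and plate, animal and age cannot be told apart. The values of single plates are given as a description of the spread.

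The renal endothelium is zoned. Glomerular endothelial cells (GEC) are fenestrated and filter plasma, afferent and efferent arterioles set the pressure across them, and peritubular capillary endothelial cells (PCEC) and the descending and ascending vasa recta serve reabsorption and urine concentration. In young animals the vascular bed still grows with the kidney, and in the adult it is largely quiescent. Immediate early genes, such as Fos, Junb and Egr1, encode transcription factors and feedback regulators, and are switched on by factors that the resting cell already holds. Heat shock proteins are chaperones that fold and protect proteins, and their transcription is driven by heat shock factors. Dissociation of a tissue is itself known to induce both groups.

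Plates held 142 to 339 cells at 6 weeks and 245 to 324 at 11 weeks, with 40645501 to 98778722 and 51534890 to 100203356 counts per plate. The summed level of 8 pan-endothelial genes was 4688 to 5275 and 4838 to 5946 counts per 500000, and none of the 8 was at 0. The summed markers of other cells were far lower in both groups, and the study's authors had removed cells with a contaminated transcriptome. The 10 tubule genes reached 11.6 to 30.0 and 10.3 to 39.4, the 4 podocyte genes 27.0 to 46.7 and 10.7 to 39.4, the 6 mural genes 10.8 to 15.9 and 10.6 to 18.7, the 6 leukocyte genes 3.86 to 5.77 and 2.02 to 5.88, the 4 fibroblast genes 0.788 to 4.90 and 0.13 to 6.67, the 4 platelet genes 0.0369 to 4.82 and 1.63 to 10.8 and the 4 erythroid genes placed outside X and Y 0.0253 to 6.56 and 0.216 to 4.60. The make-up of the plates varied more within an age than between the ages. Cells with at least 3 of 5 GEC markers (Gata5, Ehd3, Tbx3, Kcnj5, Adamtsl5) were 6.78 to 43.0% of a plate at 6 weeks and 3.40 to 44.9% at 11 weeks, and 18.7% and 18.9% over the groups, with 527 of the 2433 cells just under the threshold at 2 markers. Plvap-high cells had at least 50 counts per 500000 of Plvap, the diaphragm protein of peritubular fenestrae, and fewer than 2 of the GEC markers. They were also under 5 for the arterial Gja5 and for Slc14a1 of the descending vasa recta. Such cells were 25.5% and 26.3% over the groups. The summed GEC markers were 765 to 1230.0 and 522 to 1226. The summed markers of the remaining zones overlapped as well, at 627 to 700.4 and 466 to 641 for arteries and afferent arterioles, 119 to 260.0 and 93.3 to 186 for efferent arterioles, 539.9 to 1104 and 346 to 889.8 for descending vasa recta, 1428 to 1874 and 1301 to 2393 for peritubular, ascending and venous endothelium, 28.7 to 58.9 and 37.8 to 63.5 for tip cells, 0.887 to 13.4 and 0.097 to 36.6 for lymphatic cells and 0.913 to 20.7 and 1.14 to 20.4 for cycling cells. In such sums, fewer cells of a type and less RNA per cell cannot be told apart.

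Few genes separated the ages. Of 11123 genes with a mean of at least 2 counts per 500000 over the 9 plates, the median log2 ratio of 11 to 6 weeks was 0.01, and the central 90 percent lay between -0.58 and 0.69. A gene was called when its groups differed at least 2-fold, after adding 1 count per 500000, and every plate of one age lay beyond every plate of the other. This held for 24 genes that were higher at 11 weeks (0.216% of the genes) and 22 that were lower (0.198%). Without regard to size, the plates of the ages did not overlap for 104 genes in the higher direction (0.935%) and 132 in the lower (1.19%). With so few plates, some genes separate by the order of the plates alone. How many of these genes did so was not tested, and a single gene without overlap is a description only. The called genes were of low abundance, with a median level of 6.57 counts per 500000 for those higher and 7.89 for those lower, against 18.6 for all genes, and adding 5 counts in place of 1 left 2 and 4 of them. A gene under 2 at one age can pass the filter through the other age alone. Among the named genes, Slc29a2, Arsg, Rian, Rrm2 and Slc45a3 passed only through 11 weeks, and Ccser1, Cd69 and Pgm2l1 only through 6 weeks. By the mean of its plates Cbx2 was also under 2 at 6 weeks, although its group level was 2.03. For these the filter itself drew on the values compared. Of the 46 called genes, 21 overlap another gene of the annotation. How many of all genes do so was not counted. Among the named genes these were Slc45a3, Ccdc3, Cc2d1b, Ccser1, Rps12, Cdk19, Gstt3, Arsg, Recql5, Tmed8, Rian, Zc3h7b and Epc1. The strand of a read is not kept by this protocol, so the counts of overlapping partners cannot be fully separated.

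The widest gap between the plates of the ages was that of Ccdc3 (chr2:5137776-5230878, GRCm38), which encodes a protein secreted by endothelial cells and adipocytes. Its level was 14.4, 29.9, 13.4 and 17.5 counts per 500000 on the 4 plates at 6 weeks and 4.05, 2.30, 5.26, 3.31 and 4.20 on the 5 plates at 11 weeks. The lowest young plate was thus more than 2-fold above the highest adult plate, and the log2 ratio of the groups was -1.95. It was -0.54 with overlapping plates in the cells with GEC markers and -3.58 in the cells low in immediate early genes. The group levels were 16.9 (exact Poisson interval 16.6 to 17.3) and 3.65 (3.52 to 3.78); such intervals cover counting error only. Duplicate reads were removed by position by the authors, but without molecular identifiers reads are not independent molecules. When every cell was thinned to 50000 counts, Ccdc3 was found in 6.14% (95% exact binomial interval 4.77 to 7.76%) of the cells at 6 weeks and in 2.84% (95% exact binomial interval 2.02 to 3.86%) at 11 weeks. By plate these shares overlapped, at 10.3, 2.82, 4.72 and 5.24% against 2.67, 1.18, 5.31, 3.11 and 2.16%. Gm26776, a gene model on the opposite strand over nearly the same interval, was called lower too (log2 ratio -1.87), and its reads cannot be told apart from those of Ccdc3.

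The phosphatases and the kinase among the named genes are given together here for their function, without a count of such genes over the table. Dusp5, a nuclear phosphatase of ERK, was 10.2, 12.5, 18.7 and 12.8 counts per 500000 at 6 weeks and 3.55, 8.45, 5.08, 4.05 and 8.85 at 11 weeks (log2 ratio -1.03). Dusp8, a phosphatase of stress-activated MAP kinases, was 19.7, 17.7, 14.8 and 13.9 against 4.55, 8.82, 9.83, 5.55 and 7.33 (-1.09). The plates of Dusp8 lay well apart, whereas the highest adult plate of Dusp5 came close to the lowest young plate. Ptpn12, a tyrosine phosphatase of focal adhesions, ranged from 11.8 to 27.5 at 6 weeks and from 7.47 to 10.5 at 11 weeks (-1.13), and Ppp2cb, a catalytic subunit of protein phosphatase 2A, from 7.26 to 18.6 and from 1.88 to 6.31 (-1.24). Cdk19, a kinase of the Mediator complex, was 12.1, 11.0, 21.6 and 22.4 at 6 weeks and 6.50, 8.03, 5.10, 6.23 and 5.01 at 11 weeks (-1.36). Each of these genes was detected in at least 109 cells of either age.

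Cd69, known as an early activation antigen of lymphocytes, was 4.96, 8.70, 12.2 and 3.40 counts per 500000 at 6 weeks and 0.549, 2.18, 0.941, 2.11 and 2.44 at 11 weeks (log2 ratio -1.56). All young plates were above all adult plates. The 6 leukocyte genes summed to 4.70 counts per 500000 at 6 weeks and 4.44 at 11 weeks, with overlapping plates. Whether leukocytes held the Cd69 transcripts was not tested. In the cells low in immediate early genes alone the ratio of Cd69 was -0.14 and the plates overlapped. The remaining named genes were Ccser1 (2.51 to 6.43 against 0.0097 to 1.22, log2 ratio -1.54), Pgm2l1, a glucose-1,6-bisphosphate synthase (3.04 to 5.65 against 1.01 to 1.99, -1.11), Kctd6, an adaptor of cullin 3 (8.99 to 16.8 against 3.34 to 6.50, -1.12), Tmed8 (5.89 to 12.8 against 2.02 to 4.73, -1.17) and Pramef8 (23.3 to 48.4 against 11.2 to 18.5, -1.13). Pramef8 belongs to a multigene family whose members share sequence, so its counts are uncertain. Among the called genes outside the naming rule, picked here after their values were seen, were Gprc5a, a retinoic acid-induced orphan receptor (47.5, 51.1, 47.1 and 23.5 against 20.5, 21.9, 17.8, 9.15 and 10.1, -1.29), and Lox, the lysyl oxidase that cross-links collagen and elastin (6.98, 9.90, 9.91 and 5.29 against 4.85, 5.05, 2.39, 0.0762 and 1.23, -1.17).

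The genes that were higher at 11 weeks had varied roles and often came from few cells. Slc29a2, the equilibrative nucleoside transporter ENT2, was at 0, 0.0123, 0 and 0 counts per 500000 at 6 weeks and at 0.876, 1.54, 6.96, 4.35 and 4.56 at 11 weeks. The young cells held 1 count in all and the adult cells 2603. With 1 added, as for the other genes, the log2 ratio was 2.104, and it was 5.068 with 0.1 added and 0.7315 with 5 added. Its size therefore depends on the amount added. The adult counts came from 48 of the 1375 cells, and the largest gave 20.1% of them. Reads of the same cell are not independent, so no counting interval is given for this ratio. The gene passed the filter only through the plates at 11 weeks, where it is high. Gstt3, a glutathione S-transferase of the theta class, was 7.16, 8.80, 4.81 and 8.37 at 6 weeks and 14.9, 16.3, 27.1, 26.2 and 39.6 at 11 weeks (log2 ratio 1.65). It was found in 4.82% (95% exact binomial interval 3.61 to 6.29%) and 11.0% (95% exact binomial interval 9.38 to 12.8%) of thinned cells, intervals of counting error only. By plate these shares overlapped, at 8.93, 4.23, 3.24 and 2.80% against 8.78, 7.84, 13.9, 9.69 and 14.2%. Gstt3 overlaps Gm20441, a gene model called in the same direction (1.08). Arsg, a lysosomal arylsulfatase, was 0.498, 1.77, 0.42 and 2.39 against 4.42, 5.65, 6.36, 4.32 and 6.51 (1.54), but 59.7% of its counts at 6 weeks came from 1 cell. Cc2d1b, a regulator of ESCRT-III membrane remodelling, was 2.80, 2.39, 5.43 and 3.65 against 12.6, 7.36, 10.9, 11.0 and 18.3 (1.44).

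Epc1, a scaffold of the NuA4 histone acetyltransferase complex, was 10.6, 16.1, 14.4 and 10.6 at 6 weeks and 25.5, 23.3, 29.2, 32.2 and 31.9 at 11 weeks (log2 ratio 1.12). Its share of thinned cells was 11.2% (95% exact binomial interval 9.32 to 13.2%) and 18.4% (95% exact binomial interval 16.4 to 20.6%), intervals of counting error only. By plate these shares overlapped, at 16.5, 9.15, 9.44 and 8.74% against 19.5, 14.9, 24.9, 16.6 and 17.0%. Cbx2, a subunit of Polycomb repressive complex 1, ranged from 0.0105 to 3.53 and from 4.38 to 7.15 (1.11), and Recql5, a DNA helicase, from 0.884 to 4.87 and from 6.37 to 10.1 (1.03). Rrm2, the S-phase subunit of ribonucleotide reductase, ranged from 0.00506 to 1.72 and from 2.07 to 4.77 (1.10) and was found in 15 of the young and 39 of the adult cells. A single cell gave 30.1% of its adult counts, and without the top cell of each plate its ratio was 0.37 with overlapping plates, so that it was no longer called. Rian, an imprinted non-coding RNA of the Dlk1-Dio3 locus, was 0.729, 0.0369, 0.561 and 0.516 against 4.02, 0.993, 7.58, 2.58 and 1.81 (1.37). Casc4 (1.19), the zinc finger gene Zc3h7b (1.21) and the solute carrier Slc45a3 (1.36) completed the 12 named genes. These were low or patchy genes: for Slc45a3 and Cbx2 33.5% and 34.5% of the young counts came from 1 cell. Of the 25 named genes that were called, Rps12 included, 7 had overlapping plates without the top cells (Cbx2, Rrm2, Casc4, Zc3h7b, Slc45a3, Ccser1 and Ppp2cb). Plates overlapped for 24 in the cells with GEC markers, 22 in the Plvap-high cells and 17 in the cells low in immediate early genes. The gated cells were few on some plates, down to 11 with GEC markers and 13 Plvap-high.

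**Figure D1:**
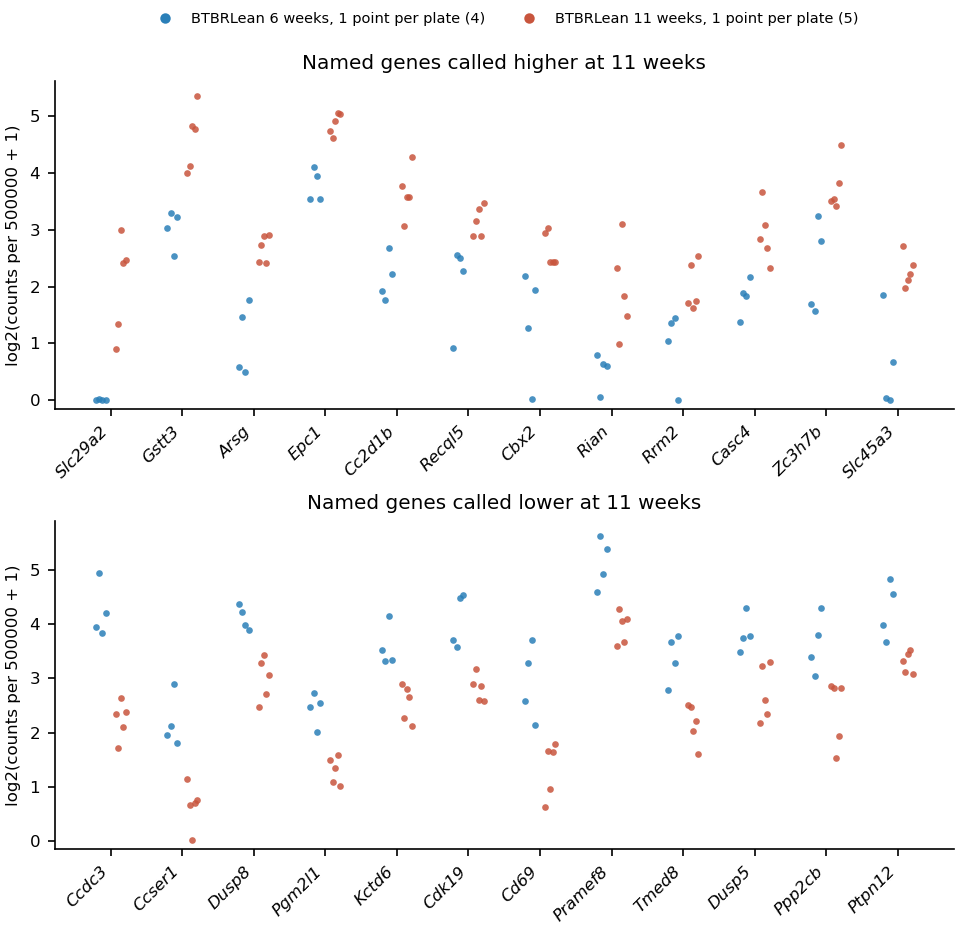
Level of the 12 named genes called higher (top) and the 12 called lower (bottom) at 11 weeks, as log2 of counts per 500000 plus 1; each point is the sum of 1 plate, blue for 6 weeks and red for 11 weeks. The plates of the ages do not overlap for any gene shown, as the rule required, and the gap is widest for Ccdc3, where the plates at 6 weeks lie at 13.4 to 29.9 and those at 11 weeks at 2.30 to 5.26 counts per 500000.

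A broader difference was seen in the immediate early genes, whose promoters are shown here because most of these genes had ratios below 0. Among those whose plates did not overlap, and the chaperones described further on, promoter windows were found for Junb, Klf4, Ier3 and Dnaja1, and that of Fos is added as the prototype of the group. The windows are the 250 bases before the annotated start (RefSeq, build GRCm38.p6), written 5′ to 3′ in the direction of the gene: chr8:84978749-84978998 on the minus strand for Junb, chr12:85473640-85473889 on the plus strand for Fos, chr4:55532476-55532725 on the minus strand for Klf4, chr17:35821463-35821712 on the plus strand for Ier3 and chr4:40722218-40722467 on the plus strand for the most upstream of 3 starts of Dnaja1. Capitals mark TGACG or its complement CGTCA (the core of the cAMP response element), TATAAA and the heat shock element GAANNTTC.
Junb: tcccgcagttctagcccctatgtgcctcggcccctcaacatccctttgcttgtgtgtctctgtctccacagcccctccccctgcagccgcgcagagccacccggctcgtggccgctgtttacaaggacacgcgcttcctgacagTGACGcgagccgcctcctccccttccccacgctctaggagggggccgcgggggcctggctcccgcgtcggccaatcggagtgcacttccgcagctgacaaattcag
Fos: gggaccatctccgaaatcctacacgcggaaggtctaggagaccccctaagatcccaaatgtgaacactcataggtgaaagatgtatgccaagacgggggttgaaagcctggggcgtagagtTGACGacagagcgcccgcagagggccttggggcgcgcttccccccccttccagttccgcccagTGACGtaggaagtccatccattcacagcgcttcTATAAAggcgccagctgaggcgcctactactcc
Klf4: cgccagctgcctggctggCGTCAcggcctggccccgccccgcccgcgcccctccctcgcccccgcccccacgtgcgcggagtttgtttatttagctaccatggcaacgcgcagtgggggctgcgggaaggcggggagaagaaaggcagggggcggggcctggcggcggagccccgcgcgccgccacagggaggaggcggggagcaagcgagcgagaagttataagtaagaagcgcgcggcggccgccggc
Ier3: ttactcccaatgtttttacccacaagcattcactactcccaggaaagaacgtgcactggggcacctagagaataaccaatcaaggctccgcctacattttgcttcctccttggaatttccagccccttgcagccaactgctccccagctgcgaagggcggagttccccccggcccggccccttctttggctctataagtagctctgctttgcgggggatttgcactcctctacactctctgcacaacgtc
Dnaja1: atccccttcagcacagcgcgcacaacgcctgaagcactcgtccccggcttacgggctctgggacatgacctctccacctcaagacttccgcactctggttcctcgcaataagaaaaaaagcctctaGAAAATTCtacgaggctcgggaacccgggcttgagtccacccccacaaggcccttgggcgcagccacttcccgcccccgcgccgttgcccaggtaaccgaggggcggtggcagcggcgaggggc

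The cAMP response element core was found in the windows of Junb and Klf4, at 106 and 232 bases before the start, and at 2 places in that of Fos, at 129 and 66 bases. It was present in 17.8% of 32841 windows of this length on either strand. Fos held a TATA box 33 bases before its start (7.59% of windows), and Dnaja1 held a heat shock element at 124 bases (6.7%). The full element TGACGTCA (1.55% of windows) and the CArG box of serum response factor (1.47%) were in none of the 5 windows printed, and Ier3 held none of the marked motifs. The GC box GGGCGG, searched on both strands and not marked, was in 32.7% of windows and in those of Klf4, Ier3, Fos and Dnaja1. These are matches of letters within 250 bases and say nothing of binding.

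Of the 29 immediate early genes listed, 25 passed the filter on low values, and 22 of the 25 had a log2 ratio below 0, with a median of -0.56 against 0.01 over all genes. None was called at 2-fold in either direction. For 5 of the 25 the plates of the ages did not overlap, all lower at 11 weeks, against 1.19% of all genes. The summed level was 6699, 11394, 9153 and 8649 counts per 500000 at 6 weeks and 6406, 6447, 4663, 4521 and 7065 at 11 weeks (log2 ratio -0.53). Plate 056s, the lowest young plate, lay under plate 1060s, the highest adult plate, and the other 3 young plates lay above all 5 adult plates. Plate 056s was also the young plate with the most GEC marker cells, 43.0% of its cells, and the part of this in its level was not tested.

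Fos was 791, 1666, 1245 and 1132 counts per 500000 at 6 weeks and 794, 710.4, 662, 538 and 912 at 11 weeks (log2 ratio -0.64), with a slight overlap of the plates. Its partner Junb was 566, 896, 673 and 639 against 522, 476, 286, 281 and 532 (-0.61), and Egr1, a zinc finger factor induced by growth factors, was 646, 949, 915 and 909 against 612, 534, 352, 270.3 and 551 (-0.82). For both, every young plate was above every adult plate. Klf4, a factor of the quiescent and sheared endothelium, was 79.7, 105, 141 and 116 against 66.2, 69.8, 51.2, 53.7 and 43.2 (-0.93), the widest gap of the 5 genes whose plates did not overlap. Its relative Klf2 did not share this: it was 278, 229, 186 and 131 against 218, 318, 145, 247 and 134 (0.14). Jun (401 to 877 against 442 to 672, -0.00136) and Jund (28.9 to 65.1 against 25.4 to 81.3, 0.21) overlapped widely too, so members of the AP-1 family differed in their ratios.

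Among the other regulators, Ier2 was 402, 577, 526 and 508 counts per 500000 at 6 weeks and 345, 358, 282, 268 and 396 at 11 weeks (log2 ratio -0.55), and Ier3, an inhibitor of apoptosis, was 247, 384, 262 and 224 against 162, 179, 139, 156 and 205 (-0.61). Neither overlapped between the ages. The MAP kinase phosphatase Dusp1, which with Fos had the highest counts of the list, was 818, 1318, 1204 and 1083 against 713, 775, 724, 664 and 1074 (-0.43) and did overlap. The lowest ratio of the list was that of the orphan nuclear receptor Nr4a2 (15.5 to 34.4 against 5.99 to 21.8, -1.40), and near that of Klf4 were the stress genes Atf3 (247 to 499 against 132 to 267, -0.93) and Ppp1r15a, which restarts translation after stress (252 to 487 against 148 to 258, -0.92). Each of these 3 overlapped on at least 1 plate. Of the list, the naming rule gave Fos and Dusp1, and the other members were picked after their values were seen.

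**Figure D2:**
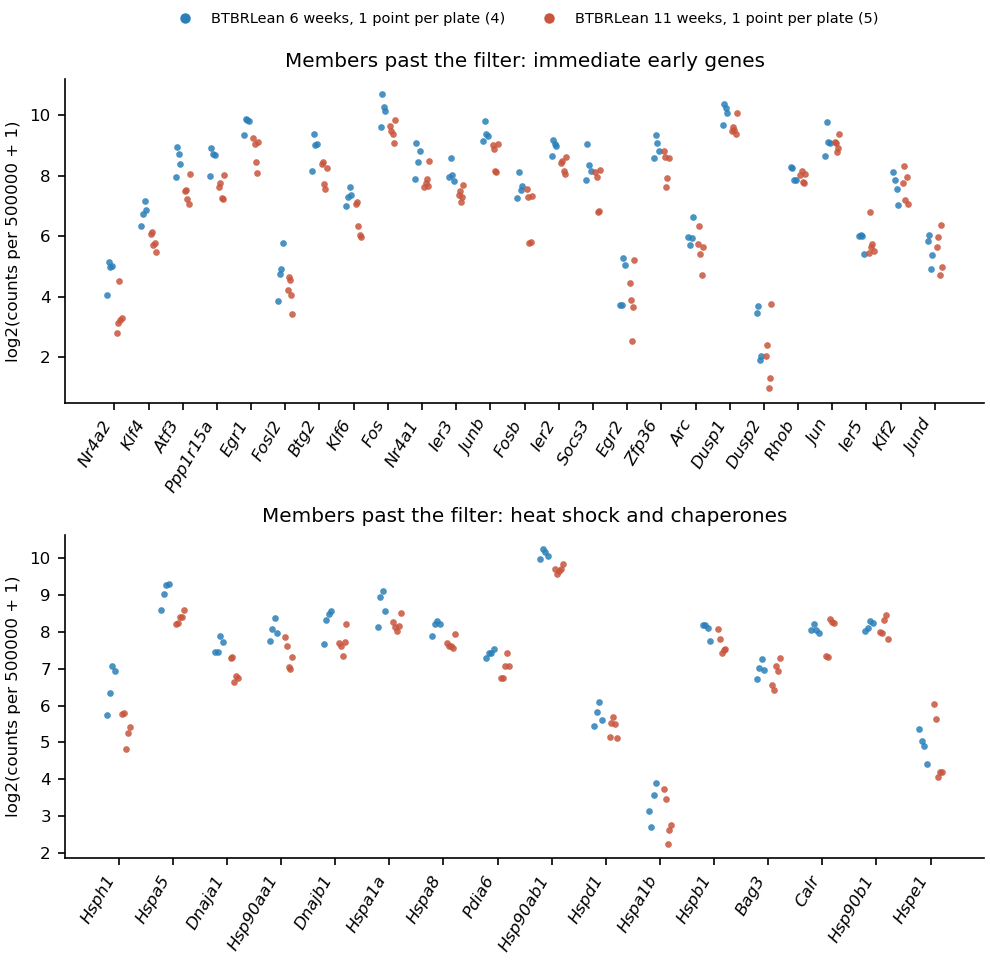
Level of each immediate early gene (top) and each chaperone gene (bottom) past the filter, as log2 of counts per 500000 plus 1, ordered by the log2 ratio of 11 to 6 weeks from the lowest at the left; each point is 1 plate, blue for 6 weeks and red for 11 weeks. Most blue points lie above the red ones at the left of both panels, and the order fades towards Jund (0.21) and Hspe1 (0.21) at the right.

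The difference lay in the number of cells with little of these transcripts more than in the cells with most of them. The median cell had a summed immediate early level of 3493, 12235, 8085 and 6933 counts per 500000 on the plates at 6 weeks and of 2499, 2595, 1962, 2310.0 and 2840.2 at 11 weeks, without overlap. The 90th percentile of the cells, in contrast, was 19050.0 over the young and 17004 over the adult cells, and its plates overlapped. Cells under the median of all 2433 cells (3141 counts per 500000) were 37.6% of the young cells (95% exact binomial interval 34.7 to 40.6%) and 59.5% of the adult cells (56.8 to 62.1%). By plate this share was 44.0, 27.5, 34.2 and 40.2% at 6 weeks and 56.5, 55.7, 66.9, 64.7 and 54.6% at 11 weeks, so no adult plate reached down to a young one. The log2 ratio of the summed list was -0.60 among the cells with GEC markers and -0.54 among the Plvap-high cells. With every cell thinned to 50000 counts it was -0.55, and over all cells -0.53. The gated cells were few on some plates, such as 11 with GEC markers on plate 1060s and 13 Plvap-high on plate 056s. Of the 198 young cells with GEC markers, 125 came from plate 056s. The time in digestion and in the sorter is not given per plate in the sources used here, and its part in the difference was not tested.

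**Figure D3:**
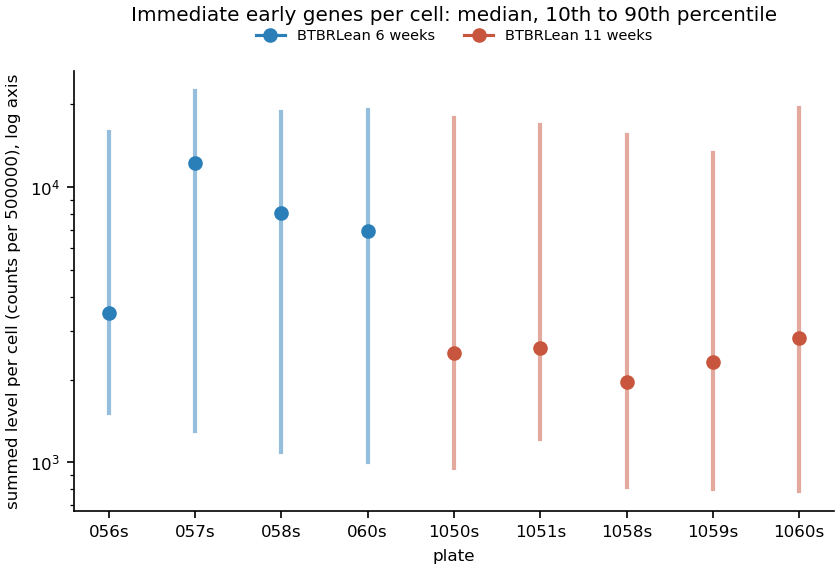
Summed level of the immediate early genes in single cells, in counts per 500000 on a log axis, for each of the 9 plates; the point is the median cell and the line runs from the 10th to the 90th percentile. The medians of the 4 plates at 6 weeks (blue, 3493 to 12235) lie above those of the 5 plates at 11 weeks (red, 1962 to 2840.2), while the upper ends of the lines overlap.

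The summed level of the chaperones was lower at 11 weeks on every plate. All 16 genes of the list passed the filter, 15 had a log2 ratio below 0, and the median was -0.40. None was called, and the plates of 2 of the 16 did not overlap in the lower direction, against 1.19% of all genes. The summed level was 3740.5, 4627, 4999 and 4497 counts per 500000 at 6 weeks and 3304, 3078, 3181, 3338 and 3586 at 11 weeks (log2 ratio -0.43). This was the only one of the 23 lists for which no young plate overlapped an adult plate, although plate 056s was close to plate 1060s. Hsp90ab1, the constitutive cytosolic HSP90, was 1021, 1212, 1161 and 1064 against 838, 767, 805, 839 and 924 (-0.40), and Dnaja1, an HSP40 co-chaperone, was 175, 176, 238 and 213 against 155, 159.7, 99.7, 112 and 107 (-0.65, picked after its values were seen). Hspa5, the HSP70 of the endoplasmic reticulum, was 386, 521, 616 and 635 against 299.5, 304, 338, 336 and 387 (-0.72), where the lowest young and the highest adult plate nearly coincided. The inducible Hspa1a (280.1 to 558 against 259 to 364, -0.46) and Hsph1, an HSP110 nucleotide exchange factor (52.2 to 135 against 27.5 to 54.8, -1.15), overlapped on single plates. The mitochondrial chaperonins Hspd1 and Hspe1 differed in direction (-0.36 and 0.21). These 4 were picked after their values were seen as well. In the cells with little immediate early RNA alone the summed log2 ratio was -0.23 and the plates of the ages overlapped.

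Metabolic lists differed less. Of the 16 genes of cholesterol synthesis past the filter, 11 had a log2 ratio below 0 (median -0.19), none was called, and the summed level was 290.1, 372, 326 and 338 counts per 500000 at 6 weeks against 288, 294, 271, 252 and 296 at 11 weeks. Plate 056s was again the young plate that overlapped the adult ones. Hmgcs1, which makes HMG-CoA, was 47.2, 61.0, 59.9 and 53.5 against 46.6, 41.5, 47.8, 29.9 and 42.1 (-0.40), and Insig1, which retains SREBP in the endoplasmic reticulum, was 54.8, 51.2, 40.2 and 36.9 against 48.7, 38.5, 25.0, 18.6 and 22.7 (-0.49). Fatty acid handling went the other way in its sum, with 1554, 1281, 1350.1 and 1423 against 1936, 1629, 1569, 1559 and 1491 counts per 500000 and overlapping plates, though only 12 of 20 genes had a ratio above 0 (median 0.11). Fabp4 and Cd36, the fatty acid carrier and transporter of capillaries, were 460.0, 322, 369 and 341 against 645, 469, 365, 372 and 378 (0.25) and 227, 163, 269 and 312 against 369, 318, 238, 279.7 and 188 (0.14). Pparg, the nuclear receptor that drives both of them, was the 1 member of 20 whose plates did not overlap, in the lower direction, 31.4, 40.3, 34.5 and 34.7 against 29.9, 29.1, 24.3, 31.3 and 26.1 (-0.27, picked after its values were seen). Over all genes 1.19% were without overlap in that direction. In cells with GEC markers the summed list had a log2 ratio of -0.15, the reverse of all cells.

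Ribosomal proteins and oxidative phosphorylation were higher at 11 weeks in sum, but the size of this depended on the plates used. Of 78 ribosomal protein genes past the filter 75 had a ratio above 0 (median 0.65), and of 75 genes of oxidative phosphorylation 64 (median 0.44). The summed ribosomal level was 8712, 6078, 5288 and 5342 at 6 weeks and 12300.0, 10157, 7738, 7266 and 5734 at 11 weeks, so that plates 1050s and 1051s stood above the rest and plate 1060s lay among the young plates. Without plates 1050s and 1051s the summed log2 ratio went from 0.46 to 0.09, and that of oxidative phosphorylation from 0.30 to 0.0032. The members with the highest counts were nearly level, Rpl4 with a log2 ratio of 0.02, Rps3 with 0.14, Atp5b with 0.07 and Atp5a1 with -0.01. Rps12 was the 1 called member, at 46.9, 36.2, 21.4 and 15.1 counts per 500000 against 92.0, 64.6, 69.1, 52.0 and 50.1 (1.16), and Rpl22 had plates that did not overlap at 53.9, 46.4, 23.3 and 36.0 against 86.8, 70.6, 86.0, 76.2 and 57.4 (0.92, picked after its values were seen). They were the 2 members of 78 without overlap, against 0.935% of all genes. Ribosomal protein genes have many processed copies in the genome, which makes their counts uncertain.

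Antigen presentation varied between plates of the same age. The summed MHC class II level was 550.0, 223, 2028 and 255 counts per 500000 at 6 weeks and 589, 420.3, 916, 999 and 733 at 11 weeks, and all 7 genes had ratios below 0 (median -0.28). Without plate 058s the log2 ratio of the sum went from -0.28 to 0.93. Cd74, the invariant chain, was 183, 71.7, 819 and 67.5 against 199.8, 127, 362, 424 and 272, and H2-Ab1 was 144, 68.8, 419 and 72.5 against 148, 114, 209, 194 and 187. Plate 058s also had the highest summed level of MHC class I genes (3768 to 7176 against 3804 to 6233, median over 16 genes 0.00405) and of interferon response genes (4809 to 6721 against 4584 to 5474, median over 30 genes -0.32) among the young plates. None of these genes was called, and the ages overlapped for all of them.

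Growth and vessel lists held at most 1 called gene each and 1 without overlap in a direction, where 0.216% of all genes were called higher, 0.935% were without overlap in the higher and 1.19% in the lower direction. In the cell cycle list 16 of 21 genes had a ratio above 0 (median 0.25), with Rrm2 called and Ccnd2, the cyclin D2 of the G1 phase, without overlap in the other direction (231, 224, 222 and 251 against 210.1, 182, 163, 184 and 190.0 counts per 500000, -0.32). Among imprinted growth genes (13 past the filter, median 0.06) Rian was called, Mest was 82.4, 77.1, 114 and 82.4 against 68.9, 117, 42.7, 59.0 and 40.4 (-0.38), and Gnas 797, 626, 584 and 465 against 638, 495, 768, 802 and 592 (0.06). In the basement membrane and matrix list (26 genes, median -0.07) Lamc1, the laminin gamma 1 chain, did not overlap (49.8, 46.2, 53.2 and 46.1 against 37.6, 32.2, 35.6, 26.6 and 37.9, -0.53, picked after its values were seen), while Timp3 (-0.31) and Sparc (0.13) did. In angiogenic signalling (31 genes, median 0.07) the VEGF receptor Flt1 was 532, 478, 560.1 and 479 against 427, 454, 385, 431 and 440.1 without overlap (-0.26, picked after its values were seen). Eng, a co-receptor of TGF-beta, was higher in its group sum (0.39) and Nrp1, a co-receptor of VEGF, lower (-0.20), both with overlap. No gene was called and no plates were without overlap in circadian clock (14 genes past the filter, median 0.000581), glucocorticoid response (12 genes past the filter, median -0.18), barrier, fenestrae and caveolae (20 genes past the filter, median -0.07), adhesion molecules and chemokines (18 genes past the filter, median -0.02), vascular tone (19 genes past the filter, median -0.07), coagulation and fibrinolysis (15 genes past the filter, median -0.04), insulin-like growth factor axis (10 genes past the filter, median -0.01), hormone receptors (11 genes past the filter, median 0.17), redox and xenobiotic enzymes (19 genes past the filter, median -0.04) and endothelial transcription factors (28 genes past the filter, median -0.07). Plvap (1319.9 to 1706 against 1143 to 2227, 0.06), Pecam1 (-0.04), Sox17 (-0.000876) and Ece1, an endothelin-converting enzyme (-0.00165), gave ratios near 0.

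The members with the highest counts in the other lists, named by the same rule, overlapped between the ages. For the clock genes Nr1d1 and Bhlhe40 the log2 ratios were 0.26 and -0.31, and for the glucocorticoid-responsive Sgk1, a kinase of sodium transport, and Sult1a1, a sulfotransferase, -0.23 and -0.15. The MHC class I genes H2-D1 and H2-K1 were at 0.04 and -0.04, and the interferon-induced surface proteins Ly6e and Ly6a at 0.18 and 0.02. Nfkbia, the inhibitor of NF-kappaB, was at 0.07 and the chemokine Cx3cl1 at 0.37. Ramp2, a subunit of the adrenomedullin receptor, was at 0.01, the plasminogen activator Plat at 0.11 and its surface partner Anxa2 at -0.31. The binding proteins of insulin-like growth factors Igfbp5 and Igfbp3 were at -0.04 and -0.31, the adiponectin receptor Adipor1 at 0.17 and the glucocorticoid receptor Nr3c1 at 0.07. Txnip, which binds thioredoxin, was at 0.30, the cytochrome P450 Cyp4b1 at 0.17, the transcription factor Sox18 at -0.07 and the tubulin Tubb5 of the cell cycle list at 0.09. Igfbp5 ranged from 323 to 483 counts per 500000 at 6 weeks and from 292 to 563 at 11 weeks, and Sgk1 from 989 to 1292 and from 782 to 1198.

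**Figure D4:**
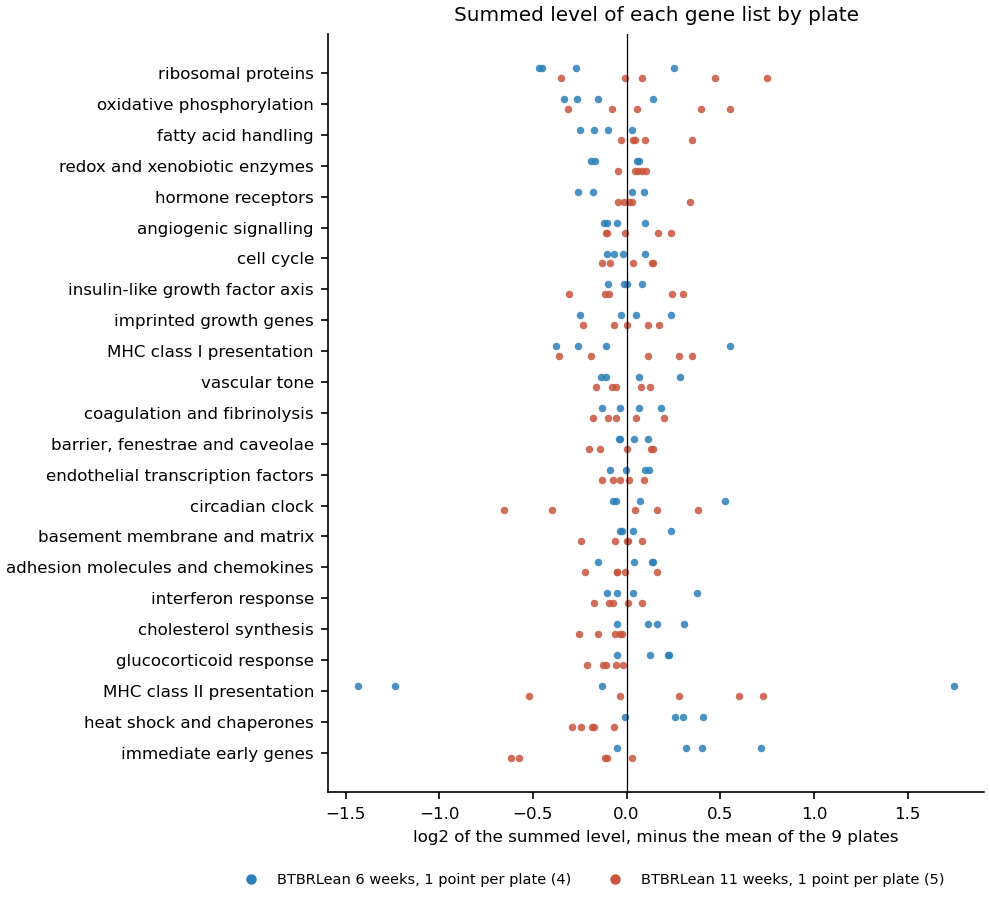
Summed level of each of the 23 gene lists by plate, as log2 minus the mean of the 9 plates; blue points are the 4 plates at 6 weeks and red points the 5 plates at 11 weeks, and lists are ordered by the log2 ratio of the group sums. Heat shock and chaperones is the list where the colours separate (3740.5 to 4999 against 3078 to 3586 counts per 500000), and the widest spread within an age is that of MHC class II presentation.

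Among the genes whose plates did not overlap, some abundant ones are given here that were picked after their values were seen. Lower in their sums at 11 weeks were Cdkn1a, the inhibitor p21 of cyclin-dependent kinases (247, 249, 362 and 314 counts per 500000 against 205, 207, 99.0, 133 and 159.6, log2 ratio -0.84), Gadd45g, a stress sensor (190.0, 180.2, 204 and 181 against 168, 145, 57.4, 90.5 and 121, -0.63), and Canx, a chaperone of the endoplasmic reticulum (134, 135, 177 and 153 against 106, 112, 98.3, 118 and 86.5, -0.54). St13 and Stip1, co-chaperones that link HSP70 and HSP90, were 93.0, 92.7, 119 and 116 against 71.4, 70.0, 33.5, 56.2 and 49.5 (-0.87) and 86.5, 98.3, 124 and 77.3 against 52.6, 52.2, 64.4, 57.5 and 61.4 (-0.75). The latter 3 act with the chaperones of the list above but were not in it. Higher were the mitochondrial ribosomal RNAs mt-Rnr1 (319, 272, 331 and 329.7 against 478, 486, 434, 393 and 352, 0.43) and mt-Rnr2 (1624, 1828, 1839 and 1761 against 2042, 1847, 2698, 2308 and 2062, 0.28), the proton-sensing receptor Gpr4 (62.7, 41.7, 45.0 and 31.0 against 76.9, 72.1, 90.5, 67.4 and 73.4, 0.71) and Egln2, a prolyl hydroxylase of hypoxia-inducible factor (34.7, 48.1, 32.9 and 39.0 against 49.3, 58.0, 71.4, 79.6 and 97.3, 0.91). All these differences were under 2-fold.

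Over the groups, detection in single cells went with the levels, but by plate it overlapped between the ages for several genes. Genes found per thinned cell varied too, with plate medians of 1977.5 to 3595 at 6 weeks and 1931 to 2937 at 11 weeks. At 50000 counts per cell, Klf4 was found in 56.6% (95% exact binomial interval 53.6 to 59.6%) of the young and 35.9% (95% exact binomial interval 33.3 to 38.5%) of the adult cells, and Rps12 in 56.0% (95% exact binomial interval 53.0 to 59.1%) and 80.5% (95% exact binomial interval 78.3 to 82.6%). Dusp8 was found in 9.17% (95% exact binomial interval 7.50 to 11.1%) and 4.73% (95% exact binomial interval 3.67 to 5.99%), and Cd69 in 3.97% (95% exact binomial interval 2.88 to 5.33%) and 1.09% (95% exact binomial interval 0.612 to 1.79%). By plate, Rps12 was found in 80.1, 78.2, 44.8 and 33.9% of the thinned young cells. On the adult plates it was 79.4, 67.1, 92.2, 82.0 and 81.8%. Dusp8 ranged from 6.64 to 14.1% at 6 weeks and from 3.11 to 7.06% at 11 weeks. The plate shares of Ccdc3, Gstt3 and Epc1 overlapped as well. The unthinned counts held Dusp8 in 250 of 1058 and 115 of 1375 cells. Genes expressed by nearly every cell differed in amount and little in detection: Hsp90ab1 was found in 99.7% and 98.8% of the cells. No cell was too shallow to be thinned. Cells of a plate share their animals and handling, so these intervals cover counting error only.

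The Lean cells at 20 weeks (588 cells on 2 plates) and the Obese cells at 6 weeks (675 cells on 3 plates) and 11 weeks (867 cells on 4 plates) share no plate with the groups compared, and are given beside them without a test. By plate number, both genotypes lie between 056s and 067s at 6 weeks and between 1050s and 1060s at 11 weeks. Likeness of the genotypes therefore cannot tell age from the series of plates. At 20 weeks the group level was on the adult side of the midpoint between 6 and 11 weeks for 14 of the 24 genes called higher and for 19 of the 22 called lower. The share over all genes was not counted, so these numbers have no background to be read against. Ccdc3 was 4.57 and 3.17 counts per 500000 on the plates at 20 weeks, close to the 11-week plates, and the immediate early sum was 5401 and 4506. Dusp8, at 23.4 and 34.9, was above all plates of both younger ages, and Slc29a2 had no count on either plate, which allows levels of up to 0.0162 and 0.0135 (3 counts). In the Obese mice 65 of 11088 genes were called higher at 11 weeks (0.586%) and 238 lower (2.15%). With fewer plates than in the Lean mice the rule is looser by construction, so these shares cannot be compared with the Lean ones. Of the 24 genes called higher in the Lean mice, 21 passed the filter there, none was called, and 14 had a ratio above 0, where 43.2% of all genes did. Of the 22 called lower, 20 passed the filter, 5 were called lower in the Obese mice too (Ccdc3, its antisense partner Gm26776, Cdk19, Pramef8 and Lox), and 18 had a ratio below 0, where 56.8% of all genes did. Ccdc3 was 5.80, 27.3 and 15.0 counts per 500000 on the Obese plates at 6 weeks and 2.67, 5.44, 0.112 and 4.78 at 11 weeks (log2 ratio -1.83), and Lox 7.42, 23.0 and 12.0 and 5.87, 4.57, 0.295 and 1.18 (-1.96). Pgm2l1 had the opposite sign (1.35), with overlapping plates. The immediate early genes gave a summed log2 ratio of -0.58 in the Obese mice (5706 to 7565 against 3915 to 5879 counts per 500000), and the chaperones -0.17 (3036 to 3339.8 against 2468 to 3039). MHC class II differed in direction, at 1.96 in the Obese and -0.28 in the Lean mice, where it was 0.93 without plate 058s; the difference was not tested.

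**Figure D5:**
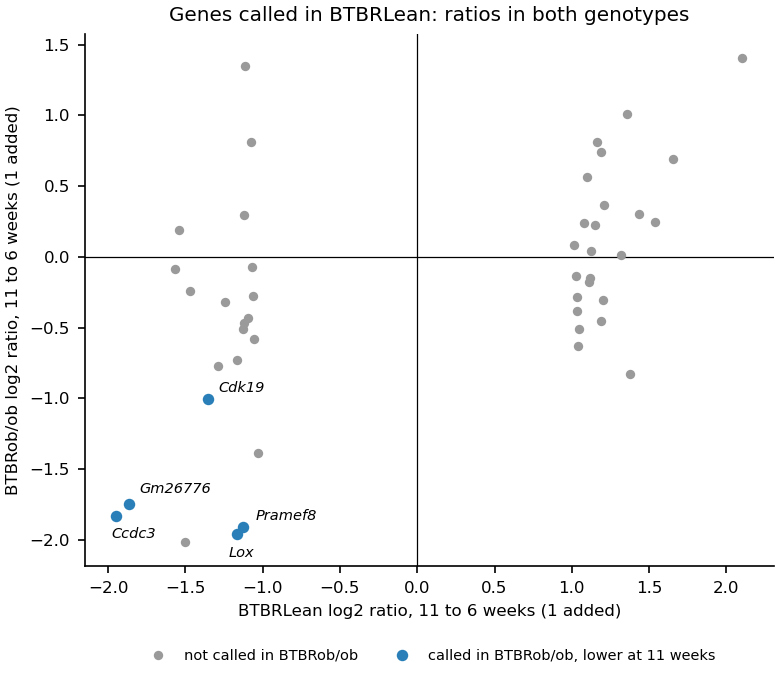
Log2 ratio of 11 to 6 weeks of the 46 genes called in the Lean mice (horizontal axis) and of the same genes in the Obese mice (vertical axis), each from group sums of counts per 500000 plus 1. The 5 genes in blue, among them Ccdc3 at -1.95 and -1.83, were called lower in the Obese mice too, and the genes higher in the Lean mice spread around 0 on the vertical axis.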

How the data were processed

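Single endothelial cells were profiled by SmartSeq2, which holds no molecular identifiers. The authors deposited 1 table of raw read counts per gene and cell; per the study's methods and the submitters' processing notes, reads were aligned with TopHat2 2.1.1 and counted with featureCounts of Subread 1.4.6-p5, on mm10 (GRCm38), after duplicate reads were removed with SAMtools 0.1.18. Cells under 50000 counts and cells with a clearly contaminated transcriptome were removed, and doublets were gated out in the sort. The annotation release and strand setting are not given in the sources used here. Counts of 29735 symbols were summed per plate (Python 3.11.15, numpy 2.4.6, pandas 2.3.3) and scaled to 500000. Symbols were placed with GENCODE vM21 and RefSeq; 1298 on X or Y and 2210 without a place (1.71% of the counts) were left out, as were genes with a mean under 2 over the 9 plates. No doublet caller was run here. The rule was also run on simulated plates with known changes. These were planted only in genes more abundant than most of those called, and single cells were not simulated. The check therefore does not cover low or patchy genes.

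A gene was called at an absolute log2 ratio of at least 1 (1 added) when plates did not overlap; named genes were the 12 of each direction with the widest gap, without gene models lacking a proper symbol, and of each list up to 4 called members and the 2 most abundant. The gene lists and the comparison were chosen with earlier results of these data known. Alternatives were edgeR 4.0.16 TMM and DESeq2 1.42.0 size factors as scaling only, plate means, thinning, pseudocounts of 0.1 and 5, filters, marker-defined cells and leaving out each plate; leaving out plates 1050s and 1051s together and the top cell of each gene were added after seeing the data. No p-value was computed.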

Additional observations from a re-analysis of the deposited data

Results flagged for a closer look

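In 208 groups of 4 or 5 plates (104 genes or list sums at both ages), 14 held a plate farther from its neighbours than expected at the 95% level of Dixon's criterion, where chance alone gives about 1 in 20. Most were on 2 plates. Of the plates at 11 weeks, plate 1060s stood apart 6 times: the hormone receptor sum (609 counts per 500000), Zc3h7b (21.4), Dusp1 (1074), Bhlhe40 (192) and Sox17 (342) were high, and Nrp1 was low (657). This plate had the fewest cells with GEC markers, 3.40% of its cells, and their part in these values was not tested. Of the plates at 6 weeks, plate 058s stood apart 4 times and was high each time, for Mest (114), H2-D1 (1643), H2-K1 (1591) and Cd74 (819). Plate 056s was low for Nrp1 (897) and Egr1 (646), plate 060s low for Igfbp3 (199.8), and plate 057s held the 1 count of Slc29a2 (0.0123 counts per 500000) where the other young plates were at 0.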

How the results depend on the processing

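The number of called genes depended on the settings. The 24 genes higher and 22 lower became 37 and 28 with 0.1 added, 2 and 4 with 5 added, and 8 and 8 with a filter of 10. Fewer cells or plates gave more calls, and fewer plates loosen the rule by construction: 50 and 47 in cells with GEC markers, of which 1 and 0 were among the 24 and 22, 55 and 43 in Plvap-high cells, 70 and 44 in cells low in immediate early genes, and 112 and 202 without plates 1050s and 1051s. Leaving out 1 plate at a time gave 36 to 96 and 26 to 54; the largest counts were 96 without plate 056s for the higher genes and 54 without plate 1051s for the lower. Without each of the other plates except 058s the higher genes numbered 37 to 54, and the lower numbered 46, 53, 37 and 34 without plates 056s, 057s, 1050s and 1060s. Scaling by TMM or DESeq2 size factors gave 23 and 26 higher and 25 and 25 lower genes. Arsg, Cc2d1b, Gstt3, Rian and Slc29a2, and Ccdc3, Cd69, Cdk19, Gm26776, Gprc5a and Pgm2l1, were called under both scalings, with thinning, without the top cells and without any 1 plate. Of these, Arsg, Rian, Slc29a2, Cd69 and Pgm2l1 passed the filter only through the age where they are high. Of 1620 recomputed ratios of the named genes, 106 had the opposite sign, over 35 of the 81 genes, and most of these were genes that were not called. Among the called genes the sign turned 5 times, in Plvap-high cells for Arsg (-0.27), Cbx2 (-0.80), Rrm2 (-0.32) and Tmed8 (0.21), and in cells with GEC markers for Slc45a3 (-1.34). Of 414 recomputed list ratios, 405 moved by less than 1 SD between plates, and 37 changed sign. The others were, in cells with GEC markers, glucocorticoid response -0.0992, interferon response -0.47, coagulation and fibrinolysis 0.17 and fatty acid handling -0.15; in Plvap-high cells cholesterol synthesis -0.40; in cells low in immediate early genes these genes themselves, which chose the cells, -0.0360, glucocorticoid response -0.0942 and chaperones -0.23; and MHC class II presentation, -0.66 to 0.93 over the left-out plates. Where no construction is named, the cause was not tested. No paired analysis was possible because no test was run and the labels tie no plate of one age to a plate of the other.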
